A study of Mus musculus with 16 samples.

Results

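The response to the cPLA2α inhibitor X (CIX) that is shared by a pair of isogenic mouse mammary cancer cell lines was described here, as the set of genes called over both lines with the same sign of change in each. 4T1 cells are metastatic and 67NR cells are not, and both were derived from the same spontaneous mammary carcinoma of a BALB/c mouse, so that each phenotype is represented by 1 cell line. The 4 groups of 4 samples were 4T1 with vehicle, 4T1 with 15 uM CIX, 67NR with vehicle and 67NR with 15 uM CIX, all incubated for 24 h. The compound was made from an omega-3 fatty acid. All 16 of the 16 samples of the series were used, and of 33072 genes that were deposited 10545 were expressed highly enough to be tested. The treatment effect was fitted over 8 CIX and 8 vehicle samples with the cell line as covariate, a gene was called at an adjusted p-value below 0.001, and 451 called genes had the same sign of change when each line was fitted alone. CPM is the estimated count scaled to the library size after TMM scaling, and a log2 fold change is CIX over vehicle, so that a positive value is a rise with CIX. Changes in parentheses after gene names are log2 fold changes, values after ± are standard errors unless marked SD, adjusted p-values are those of limma-voom with Benjamini-Hochberg adjustment, and values per sample follow the order of the sample numbers.

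The target of CIX, cytosolic phospholipase A2α, is the enzyme that frees arachidonic acid from membrane phospholipids, and cyclooxygenases turn that acid into prostaglandins. Cells under shortage of amino acids or other stress phosphorylate the translation factor eIF2α, which favours the transcription factor ATF4 and through it genes of amino acid synthesis and uptake. Interferons act through receptors and transcription factors on a broad set of antiviral genes, and tumour cells often keep part of that set switched on without infection. Genes of DNA replication are transcribed under E2F factors as cells enter S phase.

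Each sample held between 21715700 and 29450629 estimated counts, and 3 counts correspond to between 0.106 and 0.138 CPM. The first principal component separated the cell lines and held 64.1% of the variance, and the second, with 13.5%, separated CIX from vehicle in both lines, by more in 4T1 (scores of 28.2 to 39.1 with vehicle and −41.0 to −31.8 with CIX) than in 67NR (5.10 to 11.0 and −4.86 to −0.21). Summed over 7 epithelial markers, the level ran from 2462 to 2639 CPM in 4T1 with vehicle and 2562 to 2809 CPM with CIX, and from 1.81 to 5.40 and 1.13 to 3.41 CPM in 67NR, none of these markers was expressed highly enough in both lines to be tested, and the filter left out such genes of 1 line. The members of the sum, which were not tested, differed in direction in 4T1: Epcam was at 309 to 317 CPM with vehicle and 173 to 200.2 CPM with CIX and Cldn7 at 24.3 to 34.7 and 15.3 to 18.9 CPM, whereas Esrp1 was at 26.7 to 30.0 and 44.5 to 49.9 CPM and Krt18 at 1010.2 to 1103 and 1164 to 1215 CPM. All 4 T-cell markers stayed at or below 0.629 CPM (Cd8a) and all 4 endothelial markers at or below 2.26 CPM (Pecam1). Summed over 5 fibroblast markers, the level ran from 48.0 to 58.6 CPM in 4T1 with vehicle and 48.1 to 55.2 CPM with CIX, and from 182 to 196 CPM in 67NR with vehicle and 233 to 296 CPM with CIX. Most of that sum was Pdgfra, which did not pass the threshold over both lines (adjusted p = 0.0143) and had log2 fold changes of -0.039 in 4T1 and 0.75 in 67NR. Pdgfrb lay the other way, at 42.4 to 60.8 CPM in 67NR with vehicle and 28.8 to 35.1 CPM with CIX, and Lum was at most 0.129 CPM. The part of these markers in the results was not tested. Among the 67NR vehicle samples, number 13 stood apart, with a score of −25.9 on the third component against 10.1 to 15.5 in the others, and 4T1 vehicle sample 11 had −29.0.

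Pla2g4a, the gene of the enzyme that CIX inhibits (chr1:149829618-149961290 in GRCm38, minus strand), was measured in every sample. Its level was 64.6, 93.9, 160.3 and 58.5 CPM in the 4T1 vehicle samples and 118, 106, 184 and 135 CPM in 4T1 with CIX. It was 60.6, 81.8, 77.1 and 328 CPM in the 67NR vehicle samples, where the last value is that of sample 13, and 108, 117, 178 and 128 CPM in 67NR with CIX. The groups overlapped in both lines, and the change was 0.46 ± 0.29 over both lines (adjusted p = 0.235), which did not pass the threshold. Without 67NR vehicle sample 13 the change was 0.72 (adjusted p = 0.0117). These levels do not measure how far the enzyme was inhibited. In bulk samples such as these, fewer cells of a type and less RNA per cell cannot be told apart.

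CIX changed more genes in the same direction in both lines than in opposite directions, but the sizes differed between the lines. In the additive fit 452 of 10545 genes were called (4.29%; limma-voom, adjusted p below 0.001), of which 278 were higher and of the same sign in both lines (2.64%) and 173 lower and of the same sign (1.64%). The remaining called gene, the serine protease gene Prss22, fell by 1.46 on the log2 scale in 4T1 and had a value of 0.64 in 67NR (adjusted p = 0.107 there). The rule of a common sign held for 6230 of all tested genes (59.1%), so that the called genes were a small part of those that met it. Among genes with an adjusted p below 0.05 in each line fitted alone, 632 had the same sign (5.99%) and 287 opposite signs. All 4 CIX samples lay on the same side of all 4 vehicle samples in both lines for 769 genes (7.29%), and on opposite sides for 321. At the threshold of 0.001, 1000 genes were called in 4T1 alone (9.48%) and 36 in 67NR alone (0.341%), and 4 genes were called in each line alone with the same sign and 1 with opposite signs. Unless a line is named with its own test, "rose" and "fell" therefore refer to the effect over both lines. In 67NR, 660 of the 1000 genes (66.0%) had the sign they had in 4T1, and in 4T1 25 of the 36 (69.4%) had the sign they had in 67NR. Across the tested genes, which are not independent replicates, the log2 fold changes of the lines had a Pearson r of 0.176 and a Spearman rho of 0.214.

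**Figure D1:**
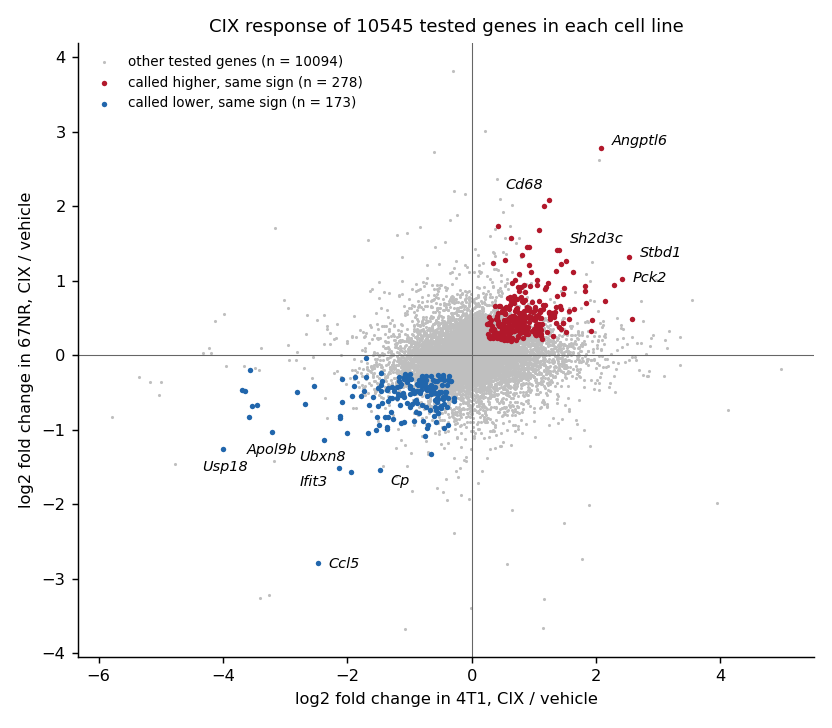
Log2 fold change (CIX over vehicle) in 4T1 on the x axis against that in 67NR on the y axis, with 1 point for each of the 10545 tested genes. The 278 red and 173 blue points are the genes called higher and lower with the same sign, and most lie nearer to the x axis, since the change was larger in 4T1 for 360 of the 451.

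The shared changes were moderate. Over the 451 genes the median size of the log2 fold change was 0.81 in 4T1 and 0.48 in 67NR, beside 0.37 and 0.19 over all tested genes, and 23 genes had a change of at least 1 in size in both lines. An interaction was called for 989 of all tested genes (9.38%) and for 49 of the 451. The direction of the calls depended on the scaling: 61.6% of the 451 were higher after TMM, against 43.2% of 361 with no scaling beyond library size and 42.3% of 291 on log2(TPM + 1). Leaving out the scaling shifted the log2 fold change of the tested genes by a median of −0.049. The number of calls also depended on the model and the samples. It was 1725 when the mean of the lines was taken from the model with an interaction (1484 of the same sign, 447 of them among the 451) and 1540 with DESeq2, against 377 with edgeR. It was lower by more than 1.5 times without 4T1 CIX samples 8 (167 genes), 16 (189) or 12 (200), without 4T1 vehicle samples 7 (179), 15 (206), 3 (237) or 11 (240), without 67NR CIX samples 6 (249), 14 (279) or 10 (287), and without 67NR vehicle sample 9 (277). Without 67NR vehicle sample 13 it was 316, with 172 higher and 143 lower genes of the same sign, and 292 of these 315 were among the 451.

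Genes were ranked by the smaller of the changes in the lines among 353 of the 451 genes, those whose CIX and vehicle samples did not overlap in either line (370) and whose symbol is no clone name. Of the 23 called genes with a change of at least 1 in both lines 6 were left out since their samples overlapped, namely Gab2, Soat2, Mgst2 and Hid1, which were higher, and Cxcl10 and Frg2f1, which were lower. The first gene that rose was Angptl6 (chr9:20873808-20879727 in GRCm38, minus strand), which encodes a secreted angiopoietin-like protein. It was at 2.77, 4.43, 4.27 and 5.24 CPM in 4T1 with vehicle and 9.07, 21.6, 23.0 and 20.6 CPM with CIX. In 67NR it was at 2.71, 2.78, 2.26 and 2.15 CPM with vehicle and 10.7, 15.4, 24.0 and 23.1 CPM with CIX. No CIX sample overlapped a vehicle sample in either line, and the lowest CIX sample of 4T1, number 4, was the one nearest to vehicle. The log2 fold change was 2.42 ± 0.27 over both lines (adjusted p = 4.55e-05), with 2.09 in 4T1 and 2.78 in 67NR. Stbd1, which encodes a glycogen-binding protein, had a log2 fold change of 2.53 in 4T1 and 1.32 in 67NR. Sh2d3c, an adaptor of integrin and receptor signalling, rose, with log2 fold changes of 1.40 in 4T1 and 1.41 in 67NR. It went from 25.6 ± 0.585 to 68.5 ± 4.36 CPM in 4T1 and from 2.13 ± 0.231 to 5.96 ± 1.79 CPM in 67NR (SD, n = 4), and it kept an adjusted p of 8.08e-06 or lower whichever sample was left out.

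Pck2, mitochondrial phosphoenolpyruvate carboxykinase, and Pycr1, which makes proline, rose over both lines, although neither passed the threshold in 67NR alone (adjusted p = 0.00160 and 0.0154). Pck2 was at 32.4, 23.8, 23.3 and 37.3 CPM in 4T1 with vehicle, 147, 153, 138 and 185 CPM in 4T1 with CIX, 44.7, 40.2, 38.9 and 34.9 CPM in 67NR with vehicle and 64.5, 83.7, 93.2 and 88.0 CPM in 67NR with CIX. The groups did not overlap, and the log2 fold change of Pck2 was larger in 4T1 (2.41) than in 67NR (1.02; interaction adjusted p = 0.000244, limma-voom). The integrin subunit Itgb7 (1.35 over both lines), Angel1 (1.33), the adhesion adaptor Lims2 (1.41), the tetraspanin Cd81 (0.99), the scaffold protein gene Grasp (1.15) and the adaptor Shf (1.000) completed the first 12 genes of this ranking that rose, of which 9 had a change of at least 1 in both lines, and each kept its call whichever of the 16 samples was removed. Cd81 was at most 2.35 CPM in 67NR and between 51.5 and 138 CPM in 4T1. Lims2 was low in 4T1, with at most 0.982 CPM with vehicle and 2.66 CPM with CIX (adjusted p in 4T1 alone = 0.0168).

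Cd68, a lysosomal membrane glycoprotein best known as a macrophage marker, was also among these 12. Its level was 50.8, 72.1, 86.9 and 63.9 CPM in 4T1 with vehicle and 131, 196, 177 and 148 CPM with CIX, and in 67NR 11.9, 8.08, 7.59 and 8.01 CPM with vehicle and 39.6, 40.8, 34.8 and 35.9 CPM with CIX. The CIX samples lay above all vehicle samples in both lines, and the log2 fold changes were 1.25 in 4T1 and 2.09 in 67NR. It was the only 1 of 6 macrophage markers that was expressed highly enough to be tested: Adgre1 was at 0 in every sample, and Csf1r, Ptprc and Itgam were at most 0.896, 1.43 and 0.598 CPM. Lyz2 was at most 2.04 CPM. Summed over the 6 markers the level ran from 52.2 to 89.0 CPM in 4T1 with vehicle, 132 to 197 CPM in 4T1 with CIX, 9.22 to 14.1 CPM in 67NR with vehicle and 36.4 to 42.3 CPM in 67NR with CIX, with Cd68 alone reaching 196 CPM. A second gene of the marker lists, the mesenchymal intermediate filament gene Vim, rose, with log2 fold changes of 1.24 in 4T1 and 0.58 in 67NR, the interaction being called (adjusted p = 0.000245). Of the other mesenchymal markers that could be tested, Fn1 had a change of 0.40 over both lines and did not pass the threshold, and neither did Zeb2 (0.60), which ran from 74.4 to 537 CPM within the 67NR vehicle samples alone. Twist1 had log2 fold changes of opposite sign, 0.92 in 4T1 and -0.12 in 67NR, with a called interaction (adjusted p = 4.36e-05). Summed over 6 mesenchymal markers, the level ran from 2481 to 3308 CPM in 4T1 with vehicle and 4331 to 5207 CPM with CIX, and from 6650 to 7134 CPM in 67NR with vehicle and 9608 to 10471 CPM with CIX. Cdh2 was at most 0.0818 CPM in 4T1. The part of these markers in the other results was not tested.

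By the same ranking the first gene that fell was Ccl5 (chr11:83525778-83530518, minus strand), a chemokine that attracts T cells and monocytes. In 4T1 it was at 46.7, 23.6, 20.2 and 45.6 CPM with vehicle and 6.42, 4.17, 5.85 and 7.00 CPM with CIX. In 67NR it was at 2.83, 3.86, 1.95 and 1.38 CPM with vehicle and 0.543, 0.209, 0.184 and 0.481 CPM with CIX. The groups did not overlap in either line, although the 67NR CIX values rest on few reads. The log2 fold change was -2.54 ± 0.29 over both lines (adjusted p = 4.68e-05), with -2.48 in 4T1 and -2.79 in 67NR. Cxcl10, another chemokine that interferon induces and not part of the ranking, fell, with log2 fold changes of -1.94 in 4T1 and -1.57 in 67NR (adjusted p over both lines = 0.000488), and lost its call without any 4T1 CIX sample, 4T1 vehicle sample 15 or 67NR CIX sample 6 (adjusted p = 0.00106 to 0.00172).

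Cp, which encodes the copper-carrying ferroxidase ceruloplasmin, fell. It was at 297, 318, 267 and 325 CPM in 4T1 with vehicle and 157, 132, 73.7 and 95.0 CPM with CIX, against 244, 244, 246 and 202 CPM in 67NR with vehicle and 98.0, 72.0, 65.1 and 92.3 CPM with CIX. Every CIX sample was below every vehicle sample, and the log2 fold changes were -1.47 in 4T1 and -1.55 in 67NR. Ubxn8, an ER-resident cofactor of the p97 ATPase, fell from 97.2 ± 8.59 to 19.4 ± 5.61 CPM in 4T1 and from 13.4 ± 4.17 to 6.03 ± 1.55 CPM in 67NR (SD, n = 4). Pidd1, an adaptor that p53 induces (-1.66 in 4T1 and -1.04 in 67NR), and Id2, an inhibitor of basic helix-loop-helix factors (-1.49 in 4T1 and -0.94 in 67NR), fell. Slfn9 (-1.36 in 4T1 and -0.998 in 67NR) and Apol9b (-3.21 in 4T1 and -1.04 in 67NR) fell as well, but 23.6% and 64.9% of their 31-base words occur in transcripts of other genes, for Apol9b in its neighbour Apol9a, so that the split of their counts is uncertain. The histone gene Hist1h4i (-1.19 over both lines) shares 35.3% of its words and lost its call on removal of any 1 of 12 samples (adjusted p = 0.00104 to 0.00203), namely without any of 4T1 CIX samples 8, 12 and 16, 4T1 vehicle samples 3, 7, 11 and 15, 67NR CIX samples 6, 10 and 14 or 67NR vehicle samples 1 and 5.

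**Figure D2:**
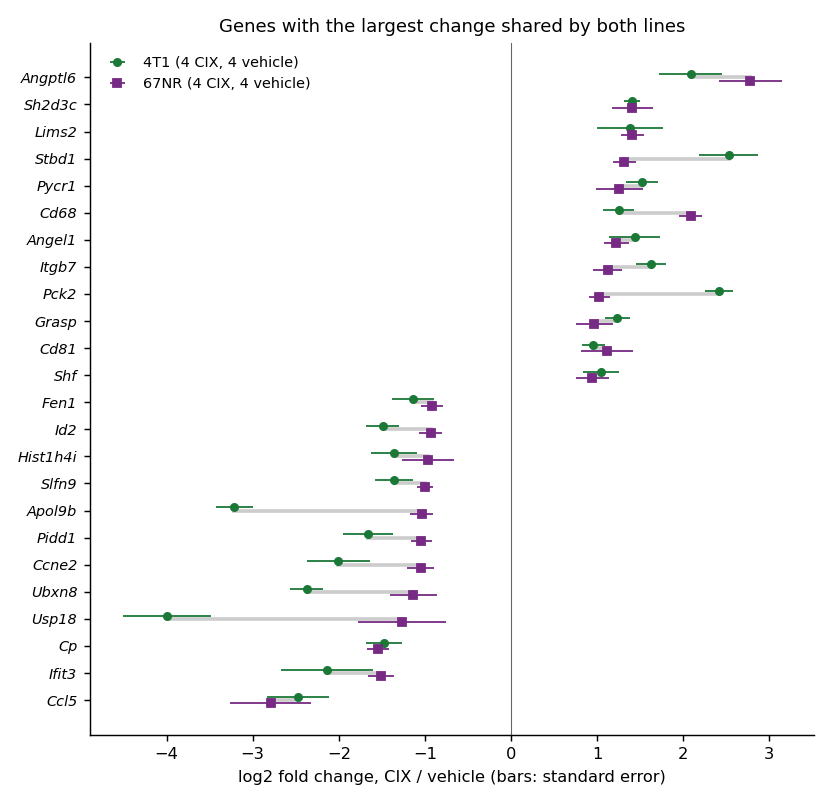
Log2 fold change (x axis, CIX over vehicle) of the first 12 genes that rose and the first 12 that fell, ranked by the smaller of the changes in the lines among called genes whose CIX and vehicle samples did not overlap. Green circles are 4T1 and purple squares 67NR, with bars for the standard error of 4 against 4 samples. Angptl6 and Ccl5 have the largest value of the smaller change, 2.09 and -2.48, and Usp18, Apol9b and Pck2 show the widest gaps between the lines.

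Some genes that ATF4 controls rose over both lines. Of 36 listed genes of amino acid synthesis, uptake and stress signalling, 31 were tested, 6 were called higher with the same sign and none lower, where 2.64% of all tested genes were called higher. The median log2 fold change of the 31 was 0.52 over both lines, 0.63 in 4T1 and 0.38 in 67NR, beside 0.0048 over all tested genes in the additive fit, and 30 of 31 values lay above 0. In 4T1 alone 3 of the 31 were called (9.48% of all tested genes) and in 67NR alone none (0.341%). All CIX samples lay above all vehicle samples in both lines for 4 members. Of all tested genes 7.29% were separated in the same direction, up or down. The called members were Pycr1, the pseudokinase gene Trib3, the alanine aminotransferase gene Gpt2, the folate enzyme gene Mthfd2, the cysteine-forming enzyme gene Cth and the aspartate aminotransferase gene Got1. Pycr1 was at 7.33, 6.38, 6.96 and 6.95 CPM in 4T1 with vehicle, 15.7, 18.3, 21.9 and 25.4 CPM in 4T1 with CIX, 9.86, 4.58, 9.33 and 6.15 CPM in 67NR with vehicle and 14.3, 14.7, 25.4 and 18.2 CPM in 67NR with CIX. Its groups did not overlap, and it changed by 1.41 ± 0.17 over both lines (adjusted p = 7.91e-05). Mthfd2 kept its call only without 4T1 CIX sample 4 or 67NR CIX sample 2 (otherwise adjusted p = 0.00127 to 0.00261). Gpt2 rose, with log2 fold changes of 1.19 in 4T1 and 0.92 in 67NR, Trib3 with 0.92 in 4T1 and 1.45 in 67NR and Cth with 1.46 in 4T1 and 0.43 in 67NR. Trib3 kept its call only without 4T1 CIX sample 4 (otherwise adjusted p = 0.00102 to 0.00219). Cth kept it only without 4T1 CIX sample 4, 67NR CIX sample 2 or any 67NR vehicle sample (otherwise adjusted p = 0.001 to 0.00177), and Got1 only without 4T1 CIX sample 4, 67NR CIX sample 2 or 67NR vehicle samples 1 or 9 (otherwise adjusted p = 0.00123 to 0.00221).

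Several of the best known members did not pass the threshold. The asparagine synthetase gene Asns had a log2 fold change of 0.81 (adjusted p = 0.00112), the glutathione-degrading Chac1 1.03 (adjusted p = 0.00525), the stress factor Ddit3 1.09 (adjusted p = 0.00739) and Atf4 itself 0.42 (adjusted p = 0.0108), all with the same sign in both lines. The stress factor Nupr1 was the member with a value below 0 (-0.64). The number of called members was 14 with DESeq2, which called 827 of all 10545 tested genes higher with the same sign, and 3 with no scaling. It was 3 without 67NR vehicle sample 13 or 5, and 10 without 4T1 CIX sample 4. Without any 1 of 4T1 CIX samples 8, 12 and 16, the 4T1 vehicle samples, or 67NR CIX samples 6, 10 and 14 it was 2. It was 4 without 67NR vehicle sample 9. Of 20 cytosolic aminoacyl-tRNA synthetases, which charge tRNA and which ATF4 also controls, the serine enzyme gene Sars alone was called (0.53; 2.64% of all tested genes were called higher), the median was 0.27, and 16 values lay above 0. Sars kept its call only without 4T1 CIX sample 4 or 4T1 vehicle sample 11 (otherwise adjusted p = 0.00143 to 0.00259), and was not called with no scaling or on log2(TPM + 1).

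The promoters of the ATF4 group were read because a composite element bound by ATF4 and C/EBP factors is known, here searched as TGATGNAA on both strands. The sequences, from RefSeq on GRCm38.p6, run from 250 bases before to 50 bases after the gene start, 5′ to 3′ on the strand of the gene, and capitals mark the matches. Pycr1 (chr11:120643699-120643998, minus strand) and Trib3 (chr2:152344011-152344310, minus strand) are shown as the members with the largest change over both lines that hold a match.
Pycr1: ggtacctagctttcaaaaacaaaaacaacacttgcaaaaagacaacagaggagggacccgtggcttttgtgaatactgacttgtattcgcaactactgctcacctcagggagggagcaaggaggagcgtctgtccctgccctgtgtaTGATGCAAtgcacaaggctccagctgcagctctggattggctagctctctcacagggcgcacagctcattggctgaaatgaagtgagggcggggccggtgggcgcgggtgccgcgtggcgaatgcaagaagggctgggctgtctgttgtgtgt
Trib3: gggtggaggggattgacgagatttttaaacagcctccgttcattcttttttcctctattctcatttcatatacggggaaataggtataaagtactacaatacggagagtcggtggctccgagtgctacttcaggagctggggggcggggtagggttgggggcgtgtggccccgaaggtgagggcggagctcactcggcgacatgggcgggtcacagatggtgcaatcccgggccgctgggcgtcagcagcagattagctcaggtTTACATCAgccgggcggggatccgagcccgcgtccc
The match lay 103 bases before the annotated start in Pycr1 and 14 bases after it in Trib3. Got1 also held a match. Of the 5 promoters in the table for called members, 3 had a match, and of 34 promoters of tested members 9 (26.5%), among them Asns, Chac1 and Slc7a11, where 2.03% of 10241 promoters of tested genes had it. Of 324 promoters of all the called higher genes of the same sign, 9 (2.78%) had a match. Pck2 was among them.

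Some genes of ribosomal proteins also rose. Of 81 tested cytosolic ribosomal protein genes, 9 were called higher with the same sign and none lower (2.64% of all tested genes were called higher), and 28 had all CIX samples above all vehicle samples in both lines (7.29% of all tested genes were separated in the same direction, up or down). The median log2 fold change was 0.22 over both lines, 0.25 in 4T1 and 0.17 in 67NR, and over both lines it stayed between 0.17 and 0.21 under the other scalings. Rpl4 was at 1810, 1727, 1754 and 1743 CPM in 4T1 with vehicle, 2336, 2554, 2472 and 2428 CPM in 4T1 with CIX, 2217, 2304, 2075 and 1878 CPM in 67NR with vehicle and 2630, 2628, 2605 and 2581 CPM in 67NR with CIX. All CIX samples lay above all vehicle samples in both lines, and Rpl4 rose by 0.39 ± 0.048 on the log2 scale. Rpl29 (0.37) and Rps3 (0.35) rose to a like extent, Rps3 losing its call without 4T1 CIX sample 8 (adjusted p = 0.00108). Pseudogenes are many in this family, and 44.5% of the 31-base words of Rpl29, 29.1% of Rpl4 and 6.2% of Rps3 occur in other genes. The number of calls was 32 with DESeq2 and between 4 and 8 under other scalings, and leaving out 1 sample gave from 2, without 4T1 CIX sample 8, to 10, without 67NR vehicle sample 5; it was 3 without 4T1 CIX sample 16, 4 without 4T1 CIX sample 12 or 4T1 vehicle samples 3, 7 or 15, and 5 without 67NR CIX sample 6. Of 78 mitochondrial ribosomal protein genes, 2 were called, both lower (1.64% of all tested genes were called lower), against 6 higher and 8 lower with DESeq2. They were Mrps6 (-0.99 in 4T1 and -0.70 in 67NR) and Mrps12 (-0.97 in 4T1 and -0.32 in 67NR). Mrps12 kept its call only without 67NR CIX sample 10 or 67NR vehicle sample 1 (otherwise adjusted p = 0.00103 to 0.00232).

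Some chaperones of the endoplasmic reticulum fell. Of 30 tested genes of this group 5 were called lower and none higher, where 1.64% of all tested genes were called lower, and 27 of 30 values lay below 0 with a median of -0.41 (-0.45 in 4T1, -0.30 in 67NR). Calr, the calcium-binding lectin chaperone calreticulin, was at 732, 640.5, 666 and 604 CPM in 4T1 with vehicle and 593, 464, 541 and 459.6 CPM with CIX. In 67NR it was at 877, 1011, 932 and 981 CPM with vehicle and 646, 643, 645 and 643 CPM with CIX. The groups did not overlap. Calr fell, with log2 fold changes of -0.38 in 4T1 and -0.58 in 67NR, the disulfide isomerase genes Pdia6 with -0.41 in 4T1 and -0.50 in 67NR and Pdia3 with -0.59 in 4T1 and -0.35 in 67NR, P4hb with -0.50 in 4T1 and -0.32 in 67NR, and the stress-induced Sdf2l1 with -0.57 in 4T1 and -0.74 in 67NR. The main ER chaperone gene Hspa5 had a value of -0.35 (adjusted p = 0.0171), and the stress sensors Ern1 and Atf6 had values above 0 (0.46 and 0.35, adjusted p = 0.00442 and 0.00635). P4hb lost its call without 4T1 CIX samples 8, 12 or 16, 4T1 vehicle samples 7 or 11 or 67NR CIX sample 14 (adjusted p = 0.00103 to 0.00128). The count of calls stayed between 4 and 6 whichever sample was left out, and DESeq2 called 14 lower and 2 higher. In the cytosol, 2 of 25 heat shock genes were called, both lower: Dnaja1 (-1.09 in 4T1 and -0.32 in 67NR) and the inducible Hsp70 gene Hspa1b (-0.76 in 4T1 and -1.09 in 67NR), of whose 31-base words 68.0% occur in other genes. Dnaja1 lost its call without any 4T1 sample, 67NR CIX sample 10 or 67NR vehicle sample 5 (adjusted p = 0.00105 to 0.00172).

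**Figure D3:**
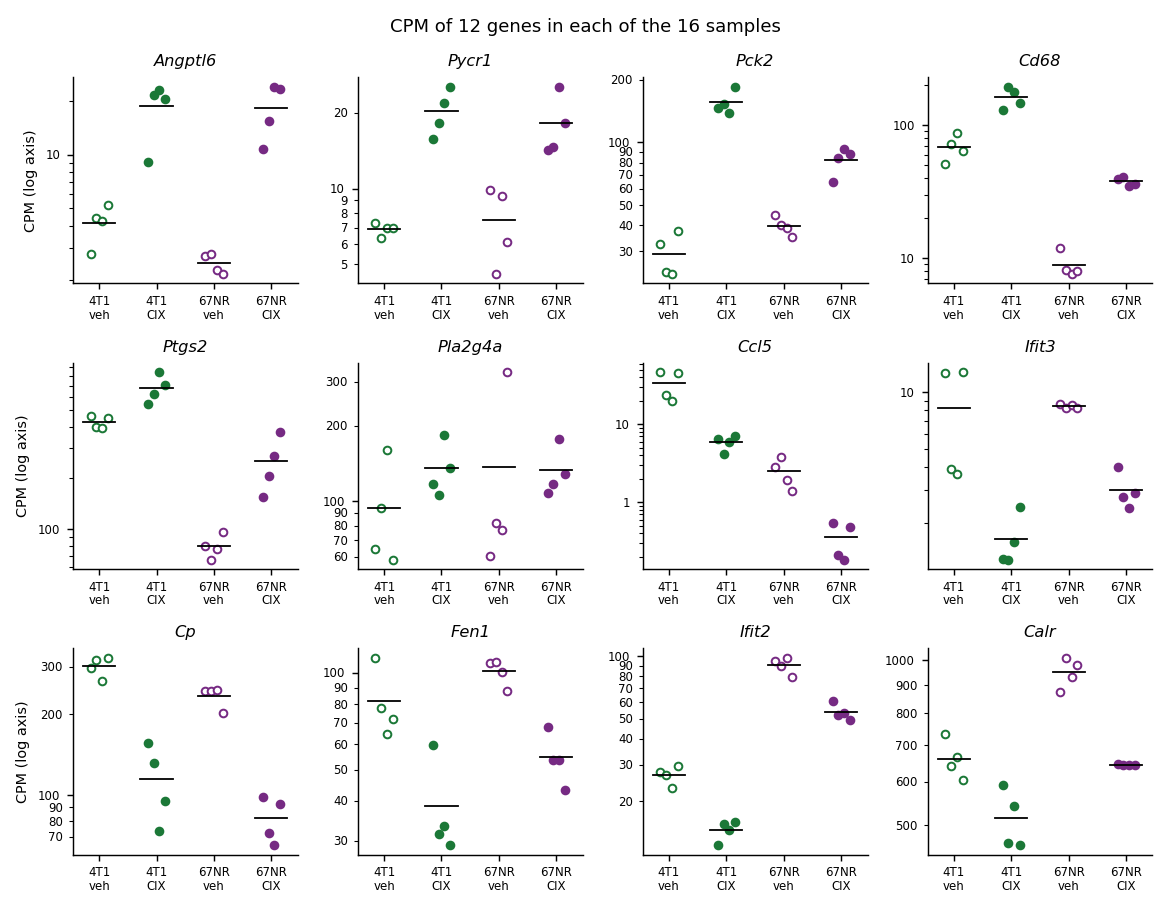
CPM on a log axis for 12 genes, with 1 point for each of the 16 samples. Open points are vehicle (veh) and filled points CIX, green is 4T1 and purple 67NR, and the bar is the mean of the 4 samples. In all panels except Pla2g4a the CIX samples lie on 1 side of the vehicle samples in both lines, and in the Pla2g4a panel 67NR vehicle sample 13 stands at 328 CPM.

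Some genes of DNA replication fell. Of 51 tested genes of S phase, 9 were called lower with the same sign and none higher (1.64% of all tested genes were called lower), among them Ccne2, Dna2, Fen1, Pcna, Exo1, Tyms, Mcm4 and Rfc3. Fen1, the nuclease that trims Okazaki fragments, was at 112, 77.9, 64.7 and 71.8 CPM in 4T1 with vehicle, 59.6, 31.5, 33.4 and 29.1 CPM in 4T1 with CIX, 107, 108, 101 and 87.9 CPM in 67NR with vehicle and 67.7, 53.5, 53.7 and 43.3 CPM in 67NR with CIX. Sample 4 of 4T1 with CIX was the highest of its group and the nearest to vehicle. Fen1 fell, with log2 fold changes of -1.13 in 4T1 and -0.92 in 67NR, and Pcna, the sliding clamp, with -0.92 in 4T1 and -0.89 in 67NR. Ccne2, which drives entry into S phase, fell, with log2 fold changes of -2.01 in 4T1 and -1.05 in 67NR, and lost its call without 4T1 CIX samples 12 or 16, 4T1 vehicle samples 7 or 15 or 67NR CIX sample 6 (adjusted p = 0.00114 to 0.00142). Tyms and Mcm4 kept their calls only without 4T1 CIX sample 4 or 4T1 vehicle sample 11, and Rfc3 only without 4T1 CIX sample 4 or 67NR CIX sample 2. Exo1 lost its call without 4T1 CIX samples 8, 12 or 16, 4T1 vehicle sample 3 or 67NR CIX sample 6 (adjusted p = 0.001003 to 0.00133), and Dna2 and Pcna kept theirs whichever of the 16 samples was removed. In 67NR 50 of 51 values lay below 0 with a median of -0.77, and in 4T1 30 did with a median of -0.17, and an interaction was called for 11 of the 51 (9.38% of all tested genes). Without 4T1 CIX sample 4 the count of calls was 17; it was 6 without 67NR vehicle sample 13, and 4 or 5 without 4T1 CIX samples 8, 12 or 16, 4T1 vehicle samples 3, 7 or 15 or 67NR CIX sample 6.

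Many interferon-stimulated genes were lower with CIX. Of 57 listed genes 36 were tested, and 15 (41.7%) were called lower and none higher, where 1.64% of all tested genes were called lower: Usp18, Rtp4, Isg15, Igtp, Gbp2, Ifit3, Trim21, Irgm1, Ifi27, Psmb10, Nmi, Irf9, Ifi35, Ifit2 and Ifitm3. The median log2 fold change was -1.65 in 4T1, where all 36 values lay below 0, and -0.27 in 67NR, where 28 did, and an interaction was called for 20 of the 36 (9.38% of all tested genes). In 4T1 alone 22 of the 36 were called (9.48% of all tested genes), and in 67NR alone none (0.341% of all tested genes). Isg15, a ubiquitin-like modifier, fell, with log2 fold changes of -3.70 in 4T1 and -0.47 in 67NR, and Usp18, which removes that modifier, with -3.99 in 4T1 and -1.26 in 67NR.

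Among called members whose CIX and vehicle samples did not overlap, Ifit3, Usp18 and Ifit2 came first by the smaller of the changes in the lines. Ifit3, an antiviral RNA-binding protein gene, was at 12.6, 3.87, 3.67 and 12.8 CPM in 4T1 with vehicle, 1.28, 1.28, 1.59 and 2.42 CPM in 4T1 with CIX, 8.62, 8.22, 8.54 and 8.26 CPM in 67NR with vehicle and 3.99, 2.76, 2.39 and 2.89 CPM in 67NR with CIX. The 4T1 vehicle samples fell into a high and a low pair, and all stood above the CIX samples, as the choice of genes without overlap required. Ifit3 fell, with log2 fold changes of -2.14 in 4T1 and -1.51 in 67NR and shares 61.8% of its 31-base words with other genes, mainly its copy Ifit3b. Its call was lost without 4T1 CIX samples 8, 12 or 16 or 67NR CIX samples 6 or 10 (adjusted p = 0.001003 to 0.00142). Ifit2, a related gene, was at 27.6, 26.6, 23.1 and 29.5 CPM in 4T1 with vehicle and 12.3, 15.6, 14.6 and 15.9 CPM with CIX, against 95.2, 89.3, 98.4 and 79.6 and 60.5, 52.3, 53.3 and 49.2 CPM in 67NR. It fell, with log2 fold changes of -0.89 in 4T1 and -0.77 in 67NR and kept its call whichever of the 16 samples was removed. Usp18 lost its call without 4T1 CIX samples 8, 12 or 16 (adjusted p = 0.00122 to 0.00130), and it was at most 2.54 CPM in 67NR. That value was vehicle sample 13, with 0.834 to 1.077 CPM in the other vehicle samples and 0.184 to 0.814 CPM with CIX. Fitted in 67NR alone Usp18 did not pass (adjusted p = 0.122), and edgeR did not call it over both lines. Of the other members, Ifi27 and Nmi kept their calls whichever sample was removed. Igtp, Irgm1 and Trim21 lost theirs without any 1 of the 8 samples of 4T1, Rtp4 and Ifitm3 without any of these except CIX sample 4, and Isg15 without any 4T1 sample or 67NR vehicle sample (adjusted p = 0.00105 to 0.00240). Gbp2 and Psmb10 lost theirs on removal of any 1 of 11 samples, including all of 4T1, and Ifi35 kept its call only without 67NR CIX sample 2 or 67NR vehicle sample 9. The count of 15 was 5 with edgeR, 23 with DESeq2 and 6 on log2(TPM + 1), and 13 without 67NR vehicle sample 13. It fell to 3 without 4T1 CIX samples 8, 12 or 16, to 8 without 4T1 CIX sample 4, and to between 5 and 7 without any 1 of the 4T1 vehicle samples.

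Promoters of 2 called members are shown with the core of the interferon-stimulated response element, searched as GAAANNGAA on both strands and marked by capitals, where overlapping matches run together. They are those of Ifit3 (chr19:34583279-34583578, plus strand) and Isg15 (chr4:156200769-156201068, minus strand), each with 3 matches, from RefSeq on GRCm38.p6 and over the same window as above.
Ifit3: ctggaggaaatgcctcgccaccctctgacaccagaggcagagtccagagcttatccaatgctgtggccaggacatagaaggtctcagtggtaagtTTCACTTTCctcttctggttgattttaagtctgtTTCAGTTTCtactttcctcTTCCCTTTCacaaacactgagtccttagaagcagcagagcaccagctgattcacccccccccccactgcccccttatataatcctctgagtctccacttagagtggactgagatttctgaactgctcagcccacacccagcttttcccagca
Isg15: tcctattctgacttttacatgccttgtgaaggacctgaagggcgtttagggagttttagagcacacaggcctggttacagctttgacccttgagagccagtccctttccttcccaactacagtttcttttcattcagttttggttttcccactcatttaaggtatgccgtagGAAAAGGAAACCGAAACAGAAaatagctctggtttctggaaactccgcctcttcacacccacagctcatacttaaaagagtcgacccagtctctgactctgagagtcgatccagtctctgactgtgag
Of 14 promoters in the table for called members 7 had a match (Gbp2, Ifit3, Ifitm3, Igtp, Irgm1, Isg15 and Trim21), and of 38 promoters of tested members 16 (42.1%), where 6.83% of all 10241 promoters had it. Of 171 promoters of all genes called lower with the same sign, 24 (14.0%) had a match, and of 324 promoters of those called higher 26 (8.02%).

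Genes of Toll-like receptor and interferon signalling that the study's text names for 4T1, and Traf6, are given for both lines. These genes were chosen on these samples, so that their direction in 4T1 is not independent evidence. Of the 25 tested genes of the wider Toll-like receptor list none was called with limma-voom in the additive fit (17 at an unadjusted p below 0.05, 0 called by edgeR and 2 by DESeq2). In that fit 4840 of all 10545 tested genes had an unadjusted p below 0.05. The receptor gene Tlr3 had a log2 fold change of -2.17 in 4T1 and 0.42 in 67NR, the adaptor gene Tirap -1.02 in 4T1 and 0.20 in 67NR, Myd88 -0.998 in 4T1 and -0.13 in 67NR and Tlr4 -0.79 in 4T1 and -0.36 in 67NR. The interaction was called for Tlr3 (adjusted p = 8.79e-06) and not for Tlr4 (adjusted p = 0.113). Of the interferon factors, Irf9 was called over both lines (-1.26) with an interaction (-1.69 in 4T1 and -0.29 in 67NR), and that call was lost without 4T1 CIX samples 8, 12 or 16 or 4T1 vehicle samples 3 or 7 (adjusted p = 0.00121 to 0.00147). Stat2 had values of -0.79 in 4T1 and 0.61 in 67NR, Irf3 of 1.28 in 4T1 and 0.033 in 67NR, Stat6 of -0.56 in 4T1 and 0.077 in 67NR, Tyk2 of 0.62 in 4T1 and -0.072 in 67NR, Traf6 of 0.54 in 4T1 and 0.19 in 67NR and Rel of -0.57 in 4T1 and -0.069 in 67NR, none of them called over both lines. Ifnar2, a chain of the type I interferon receptor, rose. It went from 34.5 ± 5.18 to 88.0 ± 11.2 CPM in 4T1 and from 16.9 ± 1.69 to 25.4 ± 2.46 CPM in 67NR (SD, n = 4), with a log2 fold change of 1.04 ± 0.13 over both lines (adjusted p = 8.75e-05) that kept its call whichever sample was left out. Irf7 was at most 1.46 CPM in 67NR and was not tested. The receptor gene Tlr9 was not tested either, with at most 1.15 CPM in 4T1 with vehicle, at most 0.241 CPM in 4T1 with CIX and at most 0.0875 CPM in 67NR. Among 19 tested genes of NF-kB subunits and targets, Ccl5 and Cxcl10 were the called ones, both lower (1.64% of all tested genes were called lower), and Rela (-0.14), Nfkb1 (-0.10) and Nfkbia (-0.14) had values that did not pass.

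Of 22 tested genes of the eicosanoid pathway, in which cPLA2α acts, 3 were called (4.29% of all tested genes were called). Ptgs2, the inducible cyclooxygenase, was at 465, 398, 396 and 452 CPM in 4T1 with vehicle and 542, 628, 841 and 701 CPM with CIX, against 80.2, 66.3, 76.8 and 96.2 and 155, 206, 271 and 375 CPM in 67NR. The CIX samples were above the vehicle samples in both lines, with log2 fold changes of 0.64 in 4T1 and 1.57 in 67NR (adjusted p over both lines = 0.000828). The call was lost on removal of any 1 of 13 samples (adjusted p = 0.00120 to 0.00231), and held without 4T1 CIX sample 4, 67NR CIX sample 2 or 67NR CIX sample 14. Ptgs2 was not called with no scaling (adjusted p = 0.00132) or on log2(TPM + 1) (adjusted p = 0.00125), nor was Pla2g15 on the latter. Pla2g15, the lysosomal phospholipase A2, rose, with log2 fold changes of 0.85 in 4T1 and 0.54 in 67NR (call lost in 11 of 16 such fits, adjusted p = 0.00101 to 0.00177, and kept without 4T1 vehicle sample 11, 67NR CIX samples 2, 6 or 10 or 67NR vehicle sample 13), and Ptges3, a prostaglandin E synthase that is also an Hsp90 co-chaperone, fell, with log2 fold changes of -0.33 in 4T1 and -0.35 in 67NR. Ptges3 kept its call only without 67NR CIX sample 2 (otherwise adjusted p = 0.00125 to 0.00257). The other prostaglandin synthase genes, Ptges (-0.39 in 4T1 and 0.90 in 67NR) and Ptges2 (0.28 in 4T1 and 0.11 in 67NR), were not called.

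**Figure D4:**
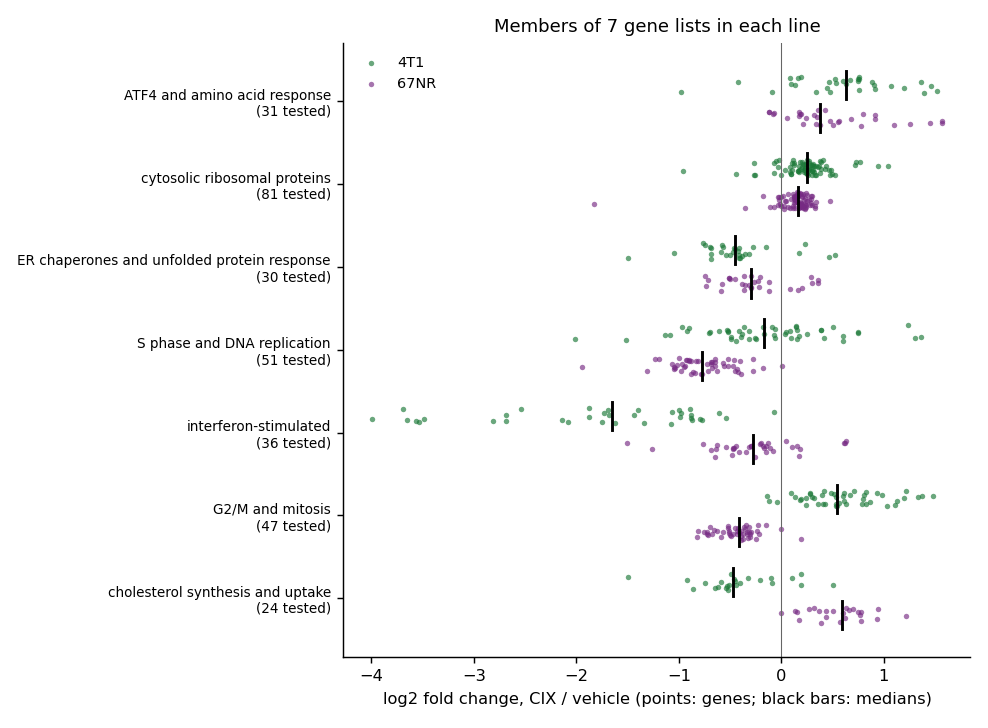
Log2 fold change (x axis, CIX over vehicle) of the tested members of 7 gene lists in 4T1 (green) and 67NR (purple), with 1 point for each gene and black bars for medians. The 5 upper lists have medians on the same side of 0 in both lines, with the widest gap for the interferon-stimulated genes (-1.65 and -0.27), and the 2 lower lists have medians on opposite sides.

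The medians of some lists had opposite signs in the lines. Genes of G2 and mitosis had a median of 0.55 in 4T1 and -0.42 in 67NR. None of 47 was called in the additive fit by limma-voom (7 at an unadjusted p below 0.05, 0 called by edgeR and 0 by DESeq2), and an interaction was called for 25 (9.38% of all tested genes). An unadjusted p below 0.05 in the additive fit was found for 4840 of all 10545 tested genes. Of 24 genes of cholesterol synthesis and uptake, 20 had values below 0 in 4T1 and all 24 above 0 in 67NR, with medians of -0.47 and 0.59, and none was called over both lines by limma-voom (3 at an unadjusted p below 0.05, 0 called by edgeR and 0 by DESeq2). All 13 genes of the mitochondrial genome had values below 0 in 67NR and 10 had in 4T1, with a median of -0.58 over both lines, and none was called by limma-voom (9 at an unadjusted p below 0.05, 0 called by edgeR and 2 by DESeq2).

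Single members of other lists were called. Of 81 tested splicing factor genes 6 were called lower and 1 higher (1.64% and 2.64% of all tested genes), against 19 lower and 6 higher with DESeq2, with 42 of the 58 that shared a sign lower. The SR protein genes Srsf6 (-0.70 over both lines) and Srsf10 (-0.51), the Sm-like gene Lsm2 (-0.62), Tra2a (-0.53), Hnrnph2 (-0.35) and Hnrnpf (-0.34) fell, and Prpf40b rose (0.84). The count of lower calls was 1 without 4T1 CIX samples 8 or 16 or 4T1 vehicle sample 7, 2 without 4T1 CIX sample 12, 3 without 4T1 vehicle samples 11 or 15, and 10 without 4T1 CIX sample 4. Srsf6 lost its call without 4T1 CIX samples 8, 12 or 16 or 4T1 vehicle samples 7 or 15 (adjusted p = 0.00111 to 0.00134), and Srsf10 without 4T1 CIX samples 8 or 16 or 4T1 vehicle sample 7 (adjusted p = 0.001003 to 0.00112). Tra2a and Hnrnpf each lost theirs on removal of any 1 of 9 samples, all but sample 4 of 4T1 CIX among them. Hnrnph2 kept its call only without 67NR CIX sample 2 or 67NR vehicle sample 13 (otherwise adjusted p = 0.00130 to 0.00280), and Prpf40b only without 67NR CIX samples 2 or 10 or 67NR vehicle sample 9 (otherwise adjusted p = 0.00136 to 0.00257). Of 25 p53 targets, Plk2 (1.47 in 4T1 and 0.82 in 67NR) and Plk3 (0.65 in 4T1 and 0.52 in 67NR) rose, both polo-like kinases of the stress response, with Plk3 losing its call without 4T1 CIX samples 8, 12 or 16 or 4T1 vehicle sample 7 (adjusted p = 0.00103 to 0.00121), while Cdkn1a had values of -1.71 in 4T1 and 0.050 in 67NR and was not called. Of 26 genes of ERK feedback, the phosphatase gene Dusp5 (0.89 in 4T1 and 1.46 in 67NR) and Myc (0.62 in 4T1 and 0.48 in 67NR) rose, Myc keeping its call only without 4T1 CIX sample 4, 4T1 vehicle sample 15, 67NR CIX sample 2 or 67NR vehicle sample 1 (otherwise adjusted p = 0.00107 to 0.00177). Of 20 YAP/TAZ genes, F3, the tissue factor gene, rose (0.86 in 4T1 and 0.74 in 67NR). In fatty acid oxidation, 2 of 23 genes rose, the carnitine palmitoyltransferase gene Cpt1a (0.84 in 4T1 and 0.32 in 67NR) and the long-chain dehydrogenase gene Acadl (1.32 in 4T1 and 0.25 in 67NR), which had a called interaction. Cpt1a lost its call without 4T1 CIX samples 8, 12 or 16, 4T1 vehicle samples 7, 11 or 15, 67NR CIX sample 10 or 67NR vehicle sample 13 (adjusted p = 0.00103 to 0.00168), and Acadl kept it only without 67NR CIX samples 2, 10 or 14 or 67NR vehicle sample 5 (otherwise adjusted p = 0.00101 to 0.00231). Of 33 genes of glycolysis and hypoxia, Ldha (-1.10 in 4T1 and -0.51 in 67NR) and Ankrd37 (-2.81 in 4T1 and -0.49 in 67NR) fell and Pfkm rose (0.61 in 4T1 and 0.25 in 67NR). Ldha, which shares 19.6% of its 31-base words, lost its call without 4T1 CIX samples 8, 12 or 16, 4T1 vehicle samples 3, 7 or 15 or 67NR CIX sample 14 (adjusted p = 0.00102 to 0.00151). Ankrd37 kept its call only without 67NR CIX samples 2 or 6 (otherwise adjusted p = 0.00114 to 0.00294), and Pfkm only without 67NR CIX sample 2 or 67NR vehicle sample 5 (otherwise adjusted p = 0.00147 to 0.00276), with no call under the other scalings. Of 59 lysosomal genes, Psap (0.28 in 4T1 and 0.44 in 67NR) and Mitf (1.04 in 4T1 and 0.53 in 67NR) rose, Mitf keeping its call only without 4T1 CIX sample 4, 67NR CIX sample 2 or 67NR vehicle sample 1 (otherwise adjusted p = 0.00152 to 0.00240). Of 35 proteasome genes, Psmd8 rose (0.44 in 4T1 and 0.24 in 67NR, call lost without 4T1 CIX samples 8 or 12 or 4T1 vehicle sample 15, adjusted p = 0.00101 to 0.00109) and the interferon-induced Psmb10 fell (-1.88 in 4T1 and -0.29 in 67NR), and of 28 NRF2 genes Gsr fell (-0.68 in 4T1 and -0.47 in 67NR). Psmb10 kept its call only without 67NR CIX samples 2, 6 or 14 or 67NR vehicle samples 5 or 13 (otherwise adjusted p = 0.00111 to 0.00233), and Gsr only without 4T1 CIX sample 4, 67NR CIX sample 2 or 67NR vehicle samples 1 or 13 (otherwise adjusted p = 0.00103 to 0.00168). By limma-voom none of 76 nuclear respiratory chain genes was called (24 at an unadjusted p below 0.05, 0 called by edgeR and 4 by DESeq2), none of 19 genes of fatty acid synthesis (4 at an unadjusted p below 0.05, 0 called by edgeR and 0 by DESeq2), none of 13 of RNA polymerase III (10 at an unadjusted p below 0.05, 0 called by edgeR and 5 by DESeq2) and none of 17 of zinc handling (7 at an unadjusted p below 0.05, 0 called by edgeR and 1 by DESeq2). The unadjusted p was below 0.05 for 4840 of all 10545 tested genes.

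At the threshold itself, Cuta was the called gene with the highest adjusted p (0.000993, log2 fold change -0.43) and Zfp446 the gene of the same sign just outside it (0.001005, -0.94). The log2 fold changes were -0.47 in 4T1 and -0.40 in 67NR for Cuta and -1.39 in 4T1 and -0.42 in 67NR for Zfp446. Cuta kept its call only without 4T1 CIX sample 4, 67NR CIX sample 2 or 67NR vehicle sample 13 (otherwise adjusted p = 0.00182 to 0.00296). With no scaling, Mthfd2, Trib3, Got1, Acadl, Psmd8, Myc, Mitf and Prpf40b also lost their calls. On log2(TPM + 1) the same genes other than Trib3 were not called, and neither were Usp18, Plk3, Rps3, Psap, Irf9, Ankrd37, Cth, Gbp2, Hnrnph2, Ifi35, Igtp, Irgm1, Isg15, Psmb10, Rtp4 and Tra2a.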

How the data were processed

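RNA of 4T1 and 67NR cells incubated for 24 h with 15 uM CIX or vehicle was sequenced by the authors from stranded poly-A libraries, single-end and on 1 flow cell. The deposited values are estimated counts per gene that the authors made with Salmon 0.12 (per the labels) and aggregated over transcripts with tximport. Which scaling tximport applied is not given in the sources used here, and the values are not whole, so that counts already scaled for length cannot be told apart from plain sums, and the approximated TPM and its filter depend on which they are. The labels name GRCh38 as the build, but the gene identifiers are those of mouse, and the methods name GRCm38. The estimated counts were rounded, and TPM was approximated from them with the mean transcript length of GENCODE M21 (32911 of 33072 genes matched), since exact effective lengths were not used here. A gene was dropped if over 3 of the 16 samples had less than 1 TPM. The rest were fitted with limma 3.58.1 (voom after TMM of edgeR 4.0.16, in R 4.3.3) on cell line and treatment, and with each line alone, at a Benjamini-Hochberg adjusted p below 0.001. The tests were tested on simulated counts, drawn with shared changes of the same size in both lines. Shared changes of unequal size and outlying samples were not simulated. edgeR's quasi-likelihood test, DESeq2 1.42.0, other scalings, filters and models, and leaving out each sample in turn were tried as alternatives.

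The samples are described as 4 biological replicates per group, and p-values measure the spread between these samples. In the additive fit that spread also holds any difference of the response between the lines. The members and lists were chosen with earlier results of these data known. Genes were named by this rule: Pla2g4a, 12 rising and 12 falling genes with the largest value of the smaller of the changes in the lines, among called genes of the same sign whose CIX and vehicle samples did not overlap in either line, up to 3 such members of each list, 12 interferon and Toll-like receptor genes that the study's text names and Traf6, and the genes just inside and outside the threshold. Other genes given by name were chosen after their values were seen. Genes were compared for shared 31-base words with all other transcripts of the annotation. Some genes are not reported here by name.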

Additional observations from a re-analysis of the deposited data

Results flagged for a closer look

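Among 280 groups of 4 samples (70 named genes), 14 held a sample whose gap to its nearest neighbour exceeded Dixon's critical share of the range, and chance gives about 1 in 20 groups, that is 14. In 67NR vehicle sample 13, Pla2g4a was at 327.8 CPM against 60.6 to 81.8 in the others, Cp at 202.3 against 243.8 to 246, and Usp18 at 2.539 against 0.834 to 1.077. In 4T1 CIX sample 4, Fen1 was at 59.62 CPM, Pdia6 at 421.4, F3 at 24.17 and Ifnar2 at 71.27, and in each case this sample lay nearer to the vehicle samples than the other 3 did. The remaining values were 11.9 CPM for Cd68 in 67NR vehicle sample 1, 17.45 for Angel1 and 121.9 for Mrps6 in 67NR CIX sample 2, 99.17 for Acadl and 1726 for Rps3 in 67NR vehicle sample 5, and 11.64 and 31.3 for Traf6 in 4T1 vehicle sample 3 and 67NR CIX sample 10.

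The change differed between the lines for 9 named genes by the limma-voom interaction test. The log2 fold change in 4T1 minus that in 67NR was 1.384 for Pck2 (adjusted p = 0.000244), 1.053 for Acadl (8.11e-06), 0.6499 for Vim (0.000245) and 1.236 for Irf3 (0.00049). It was −2.181 for Apol9b (2.99e-05), −0.7831 for Dnaja1 (9.20e-05), −1.405 for Irf9 (0.000838), −2.603 for Tlr3 (8.79e-06) and −1.408 for Stat2 (0.000213). Pck2, Apol9b, Acadl, Dnaja1, Vim, Irf9 and Irf3 had the same sign in both lines, and Tlr3 and Stat2 had opposite signs.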

How the results depend on the processing

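No paired analysis was run, because the groups share no sample numbers and no label states which samples belong together. Any such pairing is therefore not in the models. Of the 57 named genes that were called, 36 were called under every alternative other than the test against a fold change of 1.5, and 37 whichever of the 16 samples was removed. DESeq2 called 1540 genes (827 higher and 713 lower of the same sign), 2813 in 4T1 alone, 963 in 67NR alone and 1833 for the interaction. The mean of the lines from the interaction model called 1725 (822 higher, 662 lower). Sample quality weights gave 274 lower genes, 2372 in 4T1, 230 in 67NR and 1958 for the interaction, and turned Stat2 from −0.18 to 0.0889 on the log2 scale. Without scaling 156 genes were called higher. On log2(TPM + 1) 291 were called, 123 of them higher, with 22 in 67NR alone, and on log2(TPM + 0.1) 281, 117 and 23. Without a TPM filter 2 were called in 67NR alone. At an adjusted p below 0.05 the counts were 3604 (1732 higher, 1599 lower), 4514 in 4T1, 1900 in 67NR and 3481 for the interaction. With the spread taken from all 16 samples they were 2461 in 4T1 and 128 in 67NR. Tested by limma's treat against a fold change of 1.5, 1 gene was called and was higher, 0 were lower (126 at an unadjusted p below 0.05), 66 were called in 4T1, 0 in 67NR (234 at an unadjusted p below 0.05) and 103 for the interaction. The cause of these differences was not tested. Leaving out 1 sample gave 167 to 453 called genes, 103 to 283 higher, 64 to 175 lower, 242 to 915 in 4T1 alone, 0 to 61 in 67NR alone and 645 to 1091 for the interaction. The count of 0 in 67NR arose without CIX samples 6, 10 or 14 or vehicle samples 5 or 9, with 3016 to 3133 genes at an unadjusted p below 0.05. Genes near the count floor were limited by depth, and intervals were not computed for them.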

Other observations

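A filter that asks for expression in as many samples of each line as 1 treatment group holds added 312 genes to the fit, and 12 of these (3.85%) were called with the same sign in both lines, near the 4.28% of all tested genes. They were chosen after their values were seen, and a gene that passes through 1 group favours a difference between groups. Gli1, a transcription factor and target of Hedgehog signalling, was at 0.367 ± 0.207 CPM in 4T1 with vehicle and 3.36 ± 0.374 CPM with CIX, against 0.699 ± 0.133 and 2.21 ± 0.726 CPM in 67NR (SD, n = 4). F13a1, the A chain of coagulation factor XIII, was at 5.54 ± 0.648 and 1.17 ± 0.229 CPM in 4T1 and 11.0 ± 1.05 and 3.52 ± 1.04 CPM in 67NR. The Wnt receptor gene Fzd4 had a log2 fold change of 1.29, Lmo1 of 1.72, Ankrd33b of 1.24 and Cep85l of 0.70. The interferon-induced GTPase genes Gbp3 and Irgm2 had larger values in 4T1, with log2 fold changes of −4.33 in 4T1 and −1.30 in 67NR for Gbp3 and −3.65 and −0.38 for Irgm2. Over both lines the log2 fold change of Ttll11 was −1.81, of Tmem198 −1.50, of Otop1 −0.88 and of Cmbl −0.86.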
